A study of Mus musculus with 35 samples.

Results

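The C1q-like proteins and the cerebellins are small secreted proteins that share a globular C1q domain and organize synapses. The genes described here are the 4 C1q-like genes (C1ql1, C1ql2, C1ql3 and C1ql4), the 4 cerebellin genes (Cbln1, Cbln2, Cbln3 and Cbln4) and Adgrb3, which encodes the adhesion receptor BAI3. They were listed by name as a family, and all 9 were found among the 52636 genes counted. The 9 genes were followed through 35 RNA-seq libraries from the basolateral amygdala, by portion of the amygdala, mouse strain, housing and class of cognitive judgement bias.

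The cells came from 19 female mice of the inbred strain C57BL/6J or of the hybrid B6D2F1N, a cross of C57BL/6 with DBA/2. Training for the cognitive judgement bias test, in which an animal's response to an ambiguous cue is scored as optimistic or pessimistic, began on postnatal day 70 and took 37 to 90 days, so that age at death differed between mice. Housing was standard or, from postnatal day 77, enriched by 1 h per day in a playground, and the brains were taken 3 days after a test of 5 days. Tissue was collected from stained sections with a laser capture microscope, so that a library holds the RNA of all cell types within the captured area. All mice were trained and tested, and no untrained group was analysed here.

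In C57BL/6J, standard housing gave 4 anterior and 4 posterior libraries, and enriched housing gave 2 anterior and 4 posterior ones. In B6D2F1N, standard housing gave 5 libraries of each portion, and enriched housing gave 5 anterior and 6 posterior ones. Libraries of both portions were at hand for 16 of the mice, 6 of C57BL/6J and 10 of B6D2F1N. The paper lists more anterior samples in the enriched groups of both strains, and more mice with both portions, than are used here. The labels class 4 mice as optimists and 5 as pessimists, and the other 10 as neither. The reads assigned to genes numbered 16938534 to 27352623 per library. No pair of libraries held identical counts.

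C1q-like proteins are released by the presynaptic neuron and bind the receptor BAI3 on the target cell. C1ql1 is the climbing fibre signal that selects synapses on cerebellar Purkinje cells, and C1ql2 and C1ql3 are known from hippocampal mossy fibres, where they recruit kainate receptors. Cerebellins bridge presynaptic neurexins and postsynaptic partners: Cbln1 and Cbln2 bind delta glutamate receptors, whereas Cbln4 binds the netrin receptors DCC and neogenin. Cbln3 is known from cerebellar granule cells, where it is secreted together with Cbln1. In the amygdala, C1ql3 is known from excitatory neurons of the basolateral nucleus.

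The sequences just upstream of the start sites are shown for C1ql2 and Cbln4, the genes that were higher in the posterior portion of C57BL/6J by the tests given below. They were read from RefSeq on GRCm38.p6, where 6 of the 9 genes were matched; C1ql1, Cbln1 and Cbln2 were not. Each holds the 250 bases before the start site, from 5′ to 3′ on the strand of the gene. That of C1ql2 lies on the plus strand at chr1:120340332-120340581, and that of Cbln4 on the minus strand at chr2:172043467-172043716. Capitals mark a match to any of 5 motifs searched on both strands, namely the TATA box (TATAAA), the CCAAT box (spelled as its name), the GC box (letters GGGCGG), a first E-box (letters CACGTG) and a second E-box (letters CAGCTG).
C1ql2: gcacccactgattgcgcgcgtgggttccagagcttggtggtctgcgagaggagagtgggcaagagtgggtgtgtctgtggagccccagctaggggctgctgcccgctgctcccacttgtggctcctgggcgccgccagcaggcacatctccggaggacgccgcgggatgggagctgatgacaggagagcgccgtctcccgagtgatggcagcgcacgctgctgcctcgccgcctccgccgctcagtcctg
Cbln4: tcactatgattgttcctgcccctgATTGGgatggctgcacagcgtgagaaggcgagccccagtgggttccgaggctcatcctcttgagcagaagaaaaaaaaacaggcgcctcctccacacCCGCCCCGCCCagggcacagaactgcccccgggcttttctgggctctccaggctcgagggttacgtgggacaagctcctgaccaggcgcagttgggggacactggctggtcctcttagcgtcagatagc
The C1ql2 sequence held 68.8% G or C, 20 CpG dinucleotides and no match. The Cbln4 sequence held 60.8% G or C, 11 CpG dinucleotides, 1 match to the CCAAT box and 2 to the GC box, which overlap by a base. Over 32851 upstream sequences of the same length, 12.4% held the TATA box, 33.8% the CCAAT box, 32.7% the GC box, 6.02% the first E-box and 13% the second. A match is a description of the letters and not a binding site.

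On GRCm38, with GENCODE M21, all 9 genes are protein coding. C1ql1 lies at chr11:102939264-102946688 on the minus strand, C1ql2 at chr1:120340582-120343174 on the plus strand, C1ql3 at chr2:13003457-13011806 on the minus strand and C1ql4 at chr15:99084086-99087817 on the minus strand. Cbln1 lies at chr8:87468405-87472609 on the minus strand, Cbln2 at chr18:86711110-86718283 on the plus strand, Cbln3 at chr14:55878913-55884392 on the minus strand and Cbln4 at chr2:172036233-172043466 on the minus strand. Adgrb3 is a long gene on the minus strand at chr1:25067476-25829707. Reads were counted over exons, and no exon or intron was measured on its own.

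The genes spanned a wide range of levels. Per length of exon, as CPM divided by exon length in kilobases (RPKM, where CPM is the number of counts per 1000000 counted reads), C1ql3 was the highest member in the anterior portion, with 56.9 ± 21.9 (SD, n = 16 libraries). Adgrb3 followed with 14.4 ± 3.39, Cbln4 with 10.3 ± 13.4, Cbln2 with 6.57 ± 3.63, Cbln1 with 3.58 ± 3.12, C1ql1 with 1.51 ± 1.3 and C1ql2 with 0.489 ± 0.469. Apart from C1ql3, whose range of 1 SD did not reach that of Adgrb3, each of these genes lay within 1 SD of its neighbour in the order.

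The order was different in the posterior portion. Here Cbln4 stood at 30.9 ± 18.8 RPKM (SD, n = 19 libraries), C1ql3 at 26.3 ± 17.5 and Adgrb3 at 14.7 ± 4.28, and the first of these pairs lay well within 1 SD of each other. C1ql2 reached 5.76 ± 4.45, above Cbln2 with 3 ± 1.83, C1ql1 with 1.86 ± 0.631 and Cbln1 with 1.49 ± 1.15. Neighbours among these last 4 genes were within 1 SD of each other, whereas the ranges of Adgrb3 and C1ql2 did not meet.

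The remaining members were at or near the limit of detection. C1ql4 had 19 counts in all libraries together, 0 counts in 32 libraries and, at the highest, 0.483 CPM. Cbln3, the partner of Cbln1 in cerebellar granule cells, had 308 counts together, 0 counts in 16 libraries and a highest value of 3.31 CPM. A gene with 0 counts may hold up to 3 counts' worth of RNA, which is 0.109 to 0.172 CPM at the depths of these libraries. C1ql2 had 0 counts in 4 libraries, all of them anterior, and C1ql1 in 1.

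Known partners were present in every library. The neurexins Nrxn2 and Nrxn3, presynaptic receptors of the cerebellins, had mean levels of 20.6 and 21.3 RPKM in the anterior portion and of 14.8 and 16.6 RPKM in the posterior one. The delta glutamate receptor gene Grid1 had 9.31 and 11.4 RPKM.

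**Figure D1:**
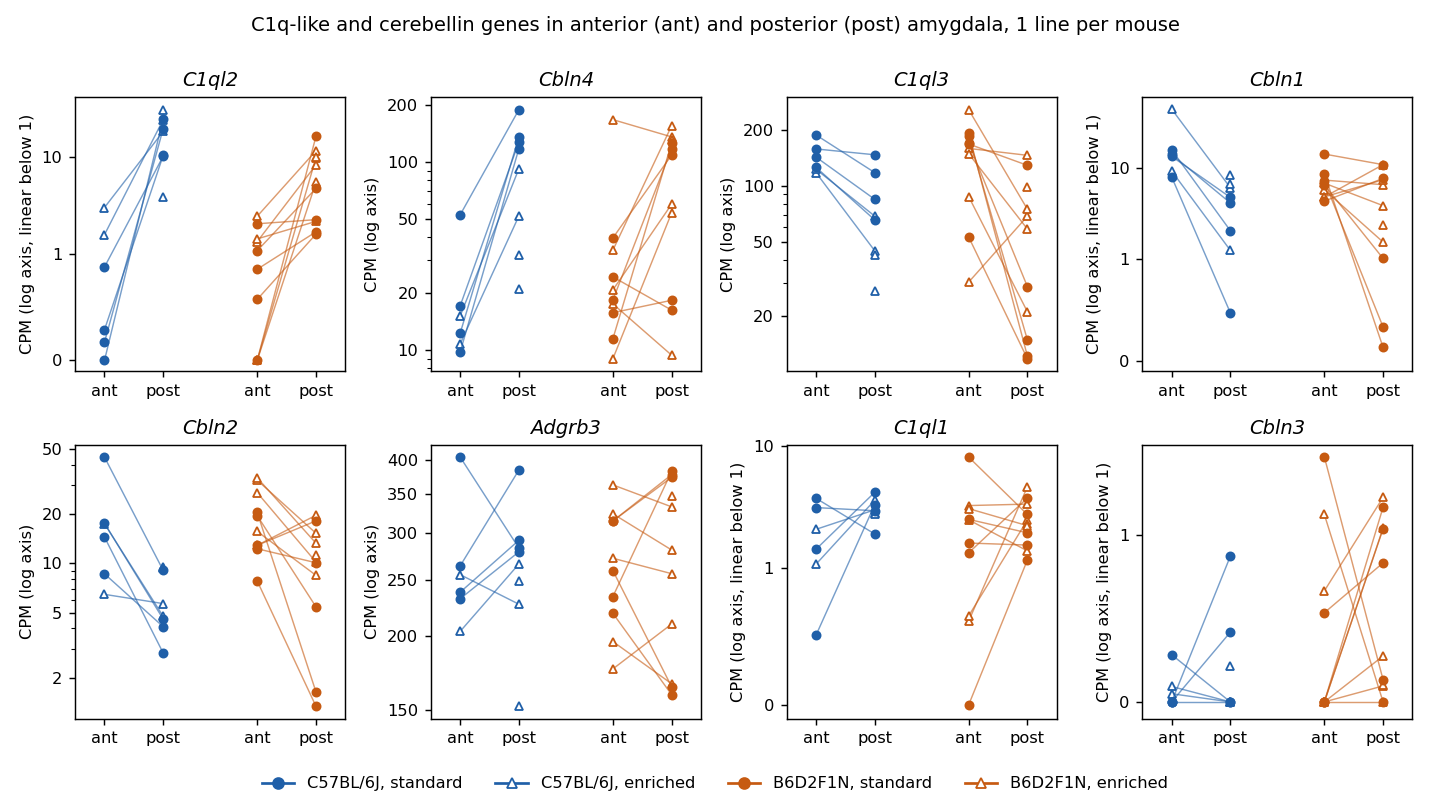
Levels of C1q-like and cerebellin genes in CPM (log axes, linear below 1 CPM where a gene had low values), with anterior and posterior libraries on the x axis and a line joining the libraries of each mouse; colour gives the strain and the symbol the housing. The C1ql2 lines all go up from anterior to posterior, and the C1ql3 lines go down in 15 of 16 mice.

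The first comparison asked whether the genes differ between the anterior and the posterior portion of the basolateral amygdala of the same mouse. The portions carry the names in the sample labels, since the study's methods give the section range nearer to bregma for the posterior portion, the reverse of anatomical order. Rspo2, a marker of anterior basolateral neurons, lay between 33.4 and 305 CPM (median 192) in the anterior libraries and between 0.0417 and 54.2 CPM (median 18.4) in the posterior ones. Ppp1r1b, a marker of posterior basolateral neurons, had similar levels in both, with medians of 29.9 and 26.1 CPM. Had the names been exchanged, the sign of each difference given here would turn.

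In C57BL/6J, 5 of the 8 members tested differed between the portions, 2 with higher and 3 with lower levels in the posterior one (edgeR's quasi-likelihood F test with the mouse as a block, adjusted p of at most 0.05). Over all 25751 genes tested, 3.64% passed this threshold, 1.54% with higher and 2.1% with lower posterior levels. The median log2 fold change, posterior over anterior, was -0.09 over the members tested and 0.01 over all genes. C1ql4 had too few counts to be tested. Without adjustment, 5 members and 13.5% of all genes had p-values under 0.05.

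C1ql2 was nearly absent from the anterior portion of C57BL/6J. Its anterior levels in standard housing were 0.17, 0, 0.874 and 0.287 CPM, and the posterior levels of the same mice were 19.9, 25.3, 10.3 and 10.5 CPM. In enriched housing, the mice with both portions had 3.01 and 1.57 CPM on the anterior side and 18.6 and 24.7 CPM on the posterior side. The portions did not overlap, and the log2 fold change was 4.70 (SE 0.621, adjusted p = 1.62e-04).

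Cbln4, the cerebellin that binds netrin receptors, went the same way at higher levels. Over the 6 mice its anterior values ran from 9.77 to 52.4 CPM with a median of 13.7, and its posterior values from 51.7 to 190 CPM with a median of 123. The ranges met only at their ends, where the anterior library of standard mouse 2 (52.4 CPM) lay just above the posterior library of enriched mouse 1 (51.7 CPM). Each of the 6 mice had more Cbln4 in the posterior portion, with a log2 fold change of 2.76 (SE 0.228, adjusted p = 1.11e-06).

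C1ql3, the most abundant C1q-like gene, was lower in the posterior portion of all 6 mice. Anterior values were 118 to 188 CPM (median 134), and posterior values 44.9 to 147 CPM (median 76.8). These ranges overlapped, because the posterior library of standard mouse 2 had 147 CPM. Within mice the log2 fold change was -0.80 (SE 0.167, adjusted p = 0.00861). Without the mouse block it was -0.71 (adjusted p = 0.14), which no longer passed the threshold.

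Cbln1 and Cbln2, the ligands of delta glutamate receptors, were lower in the posterior portion as well. Cbln1 had 7.95 to 43.7 CPM (median 13.7) in the anterior and 0.473 to 6.04 CPM (median 3.08) in the posterior libraries, without overlap. Its log2 fold change was -2.63 (SE 0.346, adjusted p = 1.50e-04). Cbln2 had 6.47 to 44.7 CPM (median 16) in the anterior and 2.83 to 9.06 CPM (median 4.65) in the posterior libraries, and these ranges overlapped. It was lower in the posterior library of all 6 mice, by a log2 fold change of -1.66 (SE 0.322, adjusted p = 0.00481). The 5 calls in C57BL/6J remained when each mouse was left out in turn.

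The receptor gene Adgrb3 did not pass the threshold in C57BL/6J. It had 204 to 405 CPM (median 247) in the anterior and 227 to 385 CPM (median 281) in the posterior libraries, and the log2 fold change was 0.12 (SE 0.162, adjusted p = 0.848). C1ql1, with medians of 1.76 and 3.14 CPM, had a log2 fold change of 0.88 (SE 0.615, adjusted p = 0.628). Cbln3, at or below 0.873 CPM in these libraries, gave -0.30 with an SE of 1.56 and did not allow a direction.

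In B6D2F1N, 1 of the 8 members tested passed the threshold, beside 4% of all 27761 genes (1.62% higher and 2.37% lower in the posterior portion). That member was C1ql3. Without adjustment, 4 members had p-values under 0.05, beside 15.5% of all genes, and DESeq2 called 3 members and 7.18% of all genes. The median log2 fold change was 0.28 over the members tested and 0.15 over all genes.

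C1ql3 had 30.4 to 257 CPM (median 164) in the anterior and 11.8 to 146 CPM (median 43.8) in the posterior libraries of the 10 B6D2F1N mice. It was higher in the anterior portion of 9 of them, and enriched mouse 1 was the exception, with 30.4 CPM in its anterior and 68.7 CPM in its posterior library. The log2 fold change was -1.71 (SE 0.393, adjusted p = 0.0156), and the call remained with each mouse left out in turn. Without the mouse block it was -1.38 (adjusted p = 0.0668).

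C1ql2 was again higher in the posterior portion of every mouse, 10 of 10 in B6D2F1N and 16 of 16 in both strains. Anterior values were 0 to 2.44 CPM (median 0.96), and posterior values 1.59 to 16.5 CPM (median 5.11). The gap was narrow in some mice, such as standard mouse 2 with 2.04 and 2.25 CPM. The log2 fold change was 2.77 (SE 0.923), and its adjusted p of 0.114 did not pass the threshold with the mouse block. It did pass without the block (2.71, adjusted p = 0.0299), with DESeq2 (adjusted p = 0.027) and without a minimum count (adjusted p = 0.0439).

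Cbln4 had 9 to 168 CPM (median 19.7) in the anterior and 9.39 to 156 CPM (median 84.2) in the posterior libraries of B6D2F1N. In 7 of 10 mice the posterior library was higher, with standard mouse 2 and enriched mice 2 and 3 as the exceptions. The log2 fold change was 1.23 (SE 0.385, adjusted p = 0.0866). It passed the threshold when standard mouse 2 (1.47, adjusted p = 0.0402) or enriched mouse 3 (1.50, adjusted p = 0.0305) was left out.

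Cbln2 was lower in the posterior portion of 8 of 10 B6D2F1N mice, with medians of 17.7 and 10.1 CPM and a log2 fold change of -1.17 (SE 0.349, adjusted p = 0.0713). Cbln1 was lower in 7 of 10, with medians of 6.64 and 5.18 CPM and a log2 fold change of -1.10 (SE 0.62, adjusted p = 0.424). DESeq2 called Cbln2 (-1.15, adjusted p = 0.0189). Leaving out standard mouse 2 (-1.35, adjusted p = 0.0401) or enriched mouse 2 (-1.35, adjusted p = 0.036) had the same effect on its call.

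Adgrb3 did not pass the threshold in this strain either, with a log2 fold change of -0.04 (SE 0.133, adjusted p = 0.932). Anterior values were 176 to 363 CPM (median 265) and posterior values 159 to 383 CPM (median 268). Over both strains the anterior library was the higher one in 8 mice and the posterior library in the other 8. C1ql1 gave a log2 fold change of 0.61 (adjusted p = 0.718) and Cbln3 of 2.40 (adjusted p = 0.517), both at low counts.

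**Figure D2:**
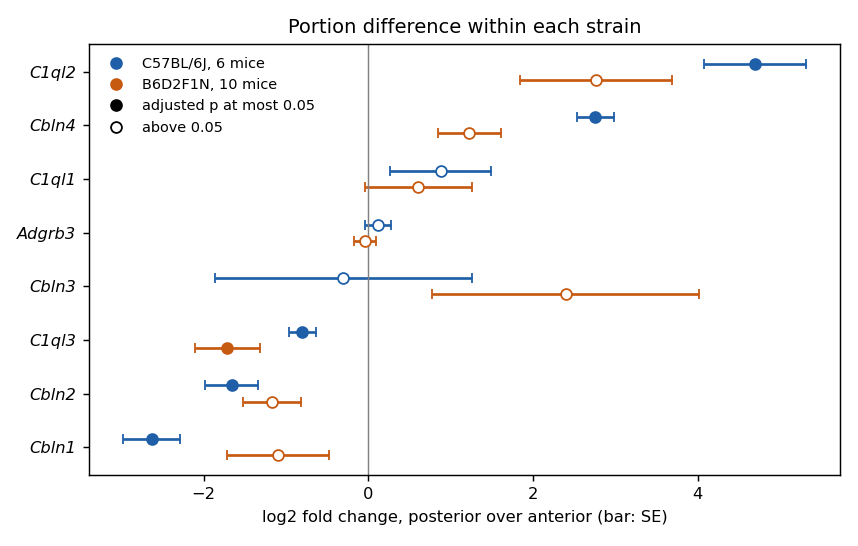
Log2 fold changes, posterior over anterior, of the members tested in C57BL/6J (6 mice) and B6D2F1N (10 mice), with bars for the SE; filled points passed an adjusted p of 0.05 and open points did not. C1ql2 and Cbln4 lie to the right of 0 and C1ql3, Cbln1 and Cbln2 to the left in both strains, with 5 filled points in C57BL/6J and 1 in B6D2F1N.

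Whether the portion difference itself depended on the strain was tested as an interaction over the 16 mice. No member and none of 29437 genes passed the threshold (0%), while 2.96% of all genes and 1 member, Cbln4, had an unadjusted p under 0.05 with edgeR. DESeq2 called 0 members and 0.0204% of all genes. The portion difference of Cbln4 was smaller in B6D2F1N by 1.53 on the log2 scale (SE 0.527, adjusted p = 1), so that the calls made in C57BL/6J alone are not shown to be particular to that strain. The interaction ran from -2.09 for C1ql2 to 2.52 for Cbln3 (SE 1.29 and 2.92) in the other 7 members tested. The portion difference was not found to depend on housing either, with 0 of 29437 genes (0%) called, 0 members at an unadjusted p under 0.05 (3.02% of all genes) and 0 members called by DESeq2 (0.0136% of all genes). The members ran from -1.92 for Cbln3 to 1.13 for Cbln1 in that interaction (SE 2.6 and 0.777).

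The sampled tissue differed between the portions in more than these genes. The summed level of 5 choroid plexus markers was 5.65 to 939 CPM (median 11.4) in the anterior and 117 to 14300 CPM (median 1450) in the posterior libraries, and that of 4 ependymal markers 0 to 22.9 CPM (median 1.34) and 3.35 to 142 CPM (median 26.2). The 5 excitatory neuron markers summed to 1900 to 4490 CPM (median 3340) in the anterior and 975 to 5500 CPM (median 2150) in the posterior libraries. The 3 markers of thalamic neurons had medians of 116 and 289 CPM, and the 3 of dentate granule neurons of 71.2 and 133 CPM. Of the latter, the defining marker Prox1 had medians of 9.91 and 12.9 CPM, and Dsp had 0 counts in 13 of 16 anterior and in 6 of 19 posterior libraries. The part of these cell types in the portion differences of C1ql2, Cbln4 and the other genes was not tested, and in bulk tissue fewer cells of a type and less RNA per cell cannot be told apart.

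In B6D2F1N, several libraries stood apart from the rest of their portion. The posterior libraries of standard mice 2 and 3 and enriched mouse 3 had 223, 246 and 247 CPM of Tcf7l2, a transcription factor of thalamic neurons, against 33.4 to 158 CPM in the other posterior libraries. The other thalamic markers did not set all 3 apart: Slc17a6 had 260, 200 and 188 CPM (67.9 to 443 CPM in the others), Lef1 had 17.1, 19.2 and 5.75 CPM (1.76 to 15.5 CPM), and the sum of the list was 500, 465 and 442 CPM (112 to 510 CPM). The same libraries were low in C1ql3, with 12.2, 11.8 and 21.1 CPM, and in Cbln4, with 16.3, 18.4 and 9.39 CPM. Their oligodendrocyte sums were 23500, 19100 and 11000 CPM (2270 to 27800 CPM in the others). Their choroid plexus sums were 350, 1820 and 14300 CPM (117 to 14000 CPM in the others). The anterior libraries of standard mouse 3 and enriched mouse 1 had only 34.2 and 33.4 CPM of the anterior marker Rspo2, and 53.2 and 30.4 CPM of C1ql3. They also had oligodendrocyte sums of 15000 and 31500 CPM (4740 to 24300 CPM in the other anterior libraries). Mouse 3 had an inhibitory neuron sum of 830 CPM (277 to 445 CPM in the others), and enriched mouse 1 a choroid plexus sum of 939 CPM (5.65 to 51.4 CPM). Over the 16 anterior libraries, C1ql3 had an r of 0.87 with Rspo2 and of -0.74 with the oligodendrocyte sum, as a description, and the part of these markers was not tested.

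The posterior libraries of standard mice 4 and 5 stood apart in another way. The 6 oligodendrocyte markers summed to 2270 and 2540 CPM, against 6810 CPM or more in the other posterior libraries, and the 5 striatal projection neuron markers to 634 and 343 CPM, against 14 to 291 CPM. Most of the striatal sum was Adora2a, with 462 and 221 CPM against 0 to 198 CPM in the others, whereas Drd1 had 20.3 and 18.7 CPM, within the 2.35 to 36.9 CPM of the others. Their levels of Ppp1r1b were 146 and 102 CPM, and those of Rspo2 were 0.0417 and 7.62 CPM. C1ql3 was low in them too, with 14.9 and 28.8 CPM, at 38.2 and 43.6 CPM of Tcf7l2.

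These libraries moved the portion results of B6D2F1N. Without the 3 mice with over 200 CPM of Tcf7l2, a setting chosen after the values were seen, Cbln4 passed the threshold with a log2 fold change of 1.97 (adjusted p = 0.00319), beside 3.27% of all genes. C1ql3 no longer passed it (-1.23, adjusted p = 0.147). Without the 2 mice with under 50 CPM of Rspo2, C1ql3 gave -1.95 (adjusted p = 0.00612) and Cbln4 gave 1.22 (adjusted p = 0.154), beside 4.03% of all genes called. When all 4 of these mice were left out, both passed, with -1.61 for C1ql3 (adjusted p = 0.0335) and 1.85 for Cbln4 (adjusted p = 0.0142), beside 2.36% of all genes. Without standard mice 4 and 5, also left out after the values were seen, no member passed, beside 3.19% of all genes: C1ql3 gave -1.33 (adjusted p = 0.0894), C1ql2 3.37 (adjusted p = 0.119) and Cbln4 0.91 (adjusted p = 0.278).

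**Figure D3:**
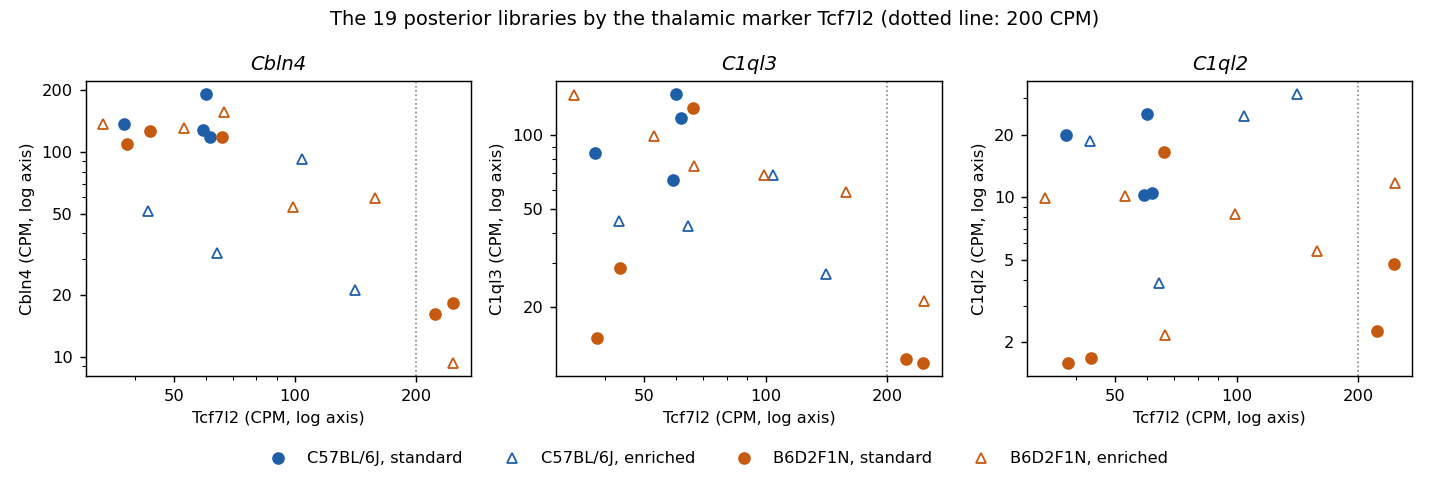
CPM of Cbln4, C1ql3 and C1ql2 in the 19 posterior libraries against CPM of Tcf7l2 (log axes, dotted line at 200 CPM), with colour for the strain and symbol for the housing. The 3 libraries to the right of the line have the lowest Cbln4 values, 9.39 to 18.4 CPM, and C1ql3 values of 11.8 to 21.1 CPM.

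C1ql3 has a close neighbour in the genome. On the same chromosome and the opposite strand, Pter (chr2:12924041-13003455 on the plus strand) ends 1 base before the 3′ end of C1ql3 in GENCODE. RefSeq places the 3′ end of C1ql3 1570 bases further on, of which 1569 lie inside the span of Pter. The library kit does not mark the strand. Pter ranged from 188 to 1480 CPM in anterior and from 56.5 to 771 CPM in posterior libraries, and it was 3.69 to 6.76 times as high as C1ql3 in the anterior and 3.78 to 6.6 times in the posterior libraries.

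Pter followed C1ql3 closely, with a Pearson's r of 0.99 for log2 CPM over the 35 libraries. Between the portions it gave log2 fold changes of -0.91 in C57BL/6J (SE 0.165, adjusted p = 0.00295) and of -1.80 in B6D2F1N (SE 0.432, adjusted p = 0.0213). Which gene's RNA gave the reads near this boundary was not tested. In addition, 62.3% of the 72-base windows along the exons of C1ql3 matched Gm37811 or Gm37824, predicted genes on the opposite strand that overlap its exons by 1547 and 80 bases, so that its count may leave out reads that fall in both.

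**Figure D4:**
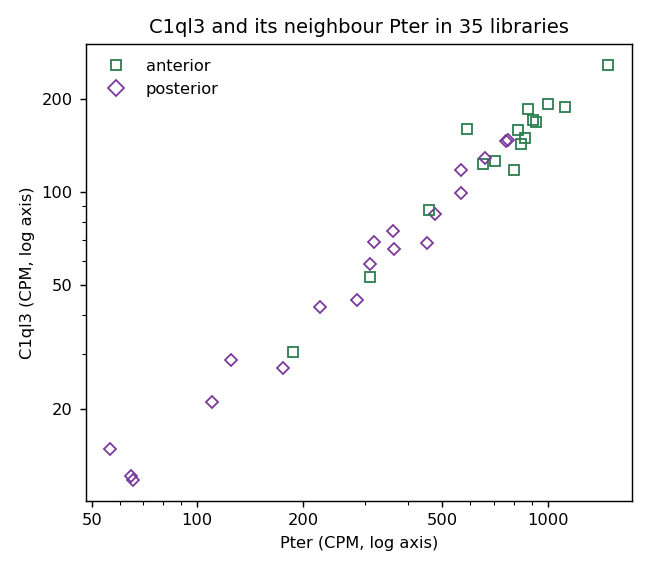
CPM of C1ql3 against CPM of its neighbour Pter in the 35 libraries (log axes), with squares for anterior and diamonds for posterior libraries. The points lie along a line in both portions, with Pter 3.69 to 6.76 times as high as C1ql3.

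The strains were compared within each portion and housing. No member passed the threshold in any of these 4 comparisons, beside 0.37% of all genes for the anterior and 0.373% for the posterior portion of standard housing, and 0.0639% and 0.394% in enriched housing. At an unadjusted p under 0.05 there were 0 members in standard anterior libraries (9% of all genes), 2 in standard posterior ones (10.3%), 1 in enriched anterior ones (4.33%) and 2 in enriched posterior ones (9.11%). DESeq2 called 1 member, Cbln1 in enriched anterior libraries, beside 0.584% of all genes there. It called 0 members in the other comparisons, beside 1.05% of all genes in standard anterior, 1.56% in standard posterior and 1.33% in enriched posterior libraries.

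In the posterior portion of standard housing, C1ql2 had 19.9, 25.3, 10.3 and 10.5 CPM in C57BL/6J and 16.5, 2.25, 4.75, 1.59 and 1.68 CPM in B6D2F1N. Of the B6D2F1N libraries, only that of mouse 1 reached the range of C57BL/6J. The log2 fold change, B6D2F1N over C57BL/6J, was -1.61 (SE 0.618, adjusted p = 0.454). C1ql3 had 84.8, 147, 65.7 and 118 CPM in C57BL/6J and 129, 12.2, 11.8, 14.9 and 28.8 CPM in B6D2F1N, again with mouse 1 alone inside the range of the other strain. Its log2 fold change was -1.39 (SE 0.604, adjusted p = 0.474).

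The B6D2F1N mouse 1 in standard housing decided both results. Without it, C1ql2 differed between the strains by -2.63 (adjusted p = 0.0191) and C1ql3 by -2.59 (adjusted p = 0.0024), and these 2 members were called, beside 0.667% of all genes. This mouse is labelled female, as are all others, but both of its libraries had 0 CPM of Xist, the transcript that silences an X chromosome in females, against 54.8 to 202 CPM in the other 33 libraries. Its library goes against the label in this respect, and what lies behind that was not tested. Of the other B6D2F1N libraries in this comparison, those of mice 2 and 3 are among the ones with over 200 CPM of Tcf7l2, with oligodendrocyte sums of 23500 and 19100 CPM, the highest among the posterior libraries of B6D2F1N, and without these 2 mice C1ql2 gave -1.32 (adjusted p = 0.594) and C1ql3 -0.84 (adjusted p = 0.667). The remaining mice 4 and 5 are those with low oligodendrocyte sums and striatal sums of 634 and 343 CPM (8070 to 12900 and 16.3 to 238 CPM in the C57BL/6J libraries). Without mice 4 and 5, C1ql2 gave -1.07 (adjusted p = 0.51) and C1ql3 -1.02 (adjusted p = 0.626). Once mouse 1 is left out, each B6D2F1N library of this group stands apart in Tcf7l2 or in its oligodendrocyte sum, and the part of this in both differences was not tested. Over the 19 posterior libraries, C1ql2 had an r of -0.66 with the striatal sum, as a description.

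In enriched housing, the posterior values of C1ql2 were 18.6, 31.3, 24.7 and 3.87 CPM in C57BL/6J and 8.34, 9.9, 11.7, 2.16, 10.1 and 5.48 CPM in B6D2F1N. The groups overlapped through C57BL/6J mouse 4, and the log2 fold change was -1.31 (adjusted p = 0.499). Cbln2 gave 0.83 (adjusted p = 0.506) in the same libraries. In the anterior portion, Cbln1 had 43.7 and 9.21 CPM in C57BL/6J and 4.78 to 7.32 CPM in B6D2F1N, without overlap between groups of only 2 and 5 libraries. The log2 fold change of Cbln1 was -2.15 (SE 0.523, adjusted p = 0.588). DESeq2 gave it an adjusted p of 0.0377, and without C57BL/6J mouse 1, whose library had the 43.7 CPM, edgeR gave -0.63 (adjusted p = 1). That library also had an oligodendrocyte sum of 24300 CPM and a Tcf7l2 level of 164 CPM, against 9860 and 46.6 CPM in the other C57BL/6J library, and their part in the level of Cbln1 was not tested.

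The other members had unadjusted p-values of 0.05 or more between the strains. In standard anterior libraries, log2 fold changes were 1.41 for C1ql2, 0 for C1ql3, -0.65 for Cbln1 and -0.55 for Cbln2. In standard posterior libraries, Cbln1 gave 0.53 and Cbln2 0.55. In enriched housing, C1ql2 gave -1.12, C1ql3 0.2 and Cbln2 1.04 in anterior libraries, and C1ql3 gave 0.77 and Cbln1 -0.06 in posterior ones. Over the 4 comparisons, C1ql1 ran from -0.44 to 0.37, Adgrb3 from -0.09 to 0.25 and Cbln4 from -0.86 to 1.97. Cbln3, at low counts, ran from 1.17 to 3.35 with SEs of 1.46 to 2.75, and C1ql4 could be tested only in enriched posterior libraries (-1.05, SE 1.84).

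Housing was compared within each strain and portion. No member passed the threshold, in a setting where edgeR called 0% of all genes in both portions of B6D2F1N and in the anterior portion of C57BL/6J, and 0.0163% in the posterior portion of C57BL/6J. Members with an unadjusted p under 0.05 numbered 2 in posterior libraries of C57BL/6J (10.3% of all genes), 1 in anterior libraries of B6D2F1N (6.3%), and 0 in anterior libraries of C57BL/6J (6.2%) and posterior libraries of B6D2F1N (6.59%). DESeq2 called 2 members, both in posterior libraries of C57BL/6J, beside 1.3% of all genes there. It called 0 members in the anterior libraries of C57BL/6J (0.437% of all genes) and in the anterior (0.0325%) and posterior (0.0499%) libraries of B6D2F1N.

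Those 2 members were Cbln4 and C1ql3. In the posterior portion of C57BL/6J, Cbln4 had 136, 190, 128 and 118 CPM in standard and 51.7, 21.1, 92.2 and 32 CPM in enriched housing. All standard libraries lay above all enriched ones, and the log2 fold change, enriched over standard, was -1.52 (SE 0.361, adjusted p = 0.195). DESeq2 gave Cbln4 an adjusted p of 0.00805, edgeR without a minimum count 0.019, and edgeR without enriched mouse 3, which had the highest enriched value, -2.01 (adjusted p = 0.00847). Without a minimum count edgeR called 0.37% of all genes, and without enriched mouse 3 it called 0.717%.

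C1ql3 had 84.8, 147, 65.7 and 118 CPM in standard and 44.9, 27.1, 68.9 and 42.5 CPM in enriched housing in the same libraries, and enriched mouse 3 lay within the standard range. Its log2 fold change was -1.16 (SE 0.3, adjusted p = 0.215), with an adjusted p of 0.0262 from DESeq2 and of 0.04 (-1.42) without enriched mouse 3. Adgrb3 had 279, 283, 292 and 385 CPM in standard and 266, 152, 227 and 249 CPM in enriched housing, without overlap, and gave -0.46, which did not pass the threshold. The summed level of 6 oligodendrocyte markers also separated these groups, with 8070 to 12900 CPM in standard and 17800 to 27800 CPM in enriched housing. The 3 dentate granule neuron markers summed to 193 to 393 CPM in standard and 66.3 to 235 CPM in enriched housing. Enriched mouse 3 had the 235 CPM and also the highest Cbln4 and C1ql3 values of its group. Cbln4 had an r of 0.69 with this sum over the 19 posterior libraries, as a description. Of these markers, only Calb1 had the lower range in enriched housing, with 37 to 222 CPM against 176 to 379 CPM. Prox1 had 10.7 to 53.4 CPM in enriched and 7.05 to 17.2 CPM in standard housing, and Dsp 0 to 16.4 and 0 to 1.16 CPM. Enriched mouse 2 had the highest Prox1 and Dsp values and the lowest Cbln4 value of its group. The thalamic sum was 237 to 510 CPM in standard and 202 to 257 CPM in enriched housing. Of its markers, Slc17a6 had 188 to 443 CPM in standard and 82.5 to 190 CPM in enriched housing. Tcf7l2 went the other way, with 37.7 to 61.5 CPM in standard and 43.3 to 141 CPM in enriched housing. The part of these markers in the differences of Cbln4, C1ql3 and Adgrb3 was not tested.

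In the anterior portion of C57BL/6J, with only 2 enriched libraries, C1ql2 had 3.01 and 1.57 CPM in enriched and 0.17, 0, 0.874 and 0.287 CPM in standard housing. The groups did not overlap, and the log2 fold change of 2.73 did not pass the threshold (adjusted p = 0.789). C1ql3 had 118 and 123 CPM in enriched and 126 to 188 CPM in standard housing, also without overlap, with a log2 fold change of -0.36 (SE 0.23, adjusted p = 0.843). Groups as small as these can separate by chance. The share of all genes without overlap was not computed for this or any other comparison. In B6D2F1N, Cbln2 had 12.9 to 33.4 CPM in enriched and 7.81 to 20.5 CPM in standard anterior libraries, which overlapped, with a log2 fold change of 0.73 (adjusted p = 0.77).

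For the remaining members, housing gave log2 fold changes of -0.49 to 0.27 for C1ql1 and -0.47 to 1.05 for Cbln1 over the 4 comparisons. In the comparisons not given above, C1ql2 ran from 0.21 to 0.55, C1ql3 from -0.17 to 0.97, Cbln2 from -0.84 to 0.8, Cbln4 from -0.82 to 1.19 and Adgrb3 from -0.32 to -0.01. Cbln3, at low counts, ran from -2.49 to -0.38 in the 3 comparisons that tested it (SE 1.18 to 2.03). C1ql4 was tested only in posterior libraries of C57BL/6J, where only the library of enriched mouse 2 had any of its reads.

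The interaction of strain and housing called 0 members and 0% of all genes in either portion. In anterior libraries, Cbln1 (-1.53, adjusted p = 0.819) and Cbln2 (1.57, adjusted p = 0.831) had unadjusted p-values under 0.05, as had 5.98% of all genes. In posterior libraries, C1ql3 did (2.15, SE 0.794, adjusted p = 0.491), beside 8.38% of all genes. The other members tested ran from -2.54 for C1ql2 to 2.02 for Cbln4 in anterior libraries (SE 2.16 and 1.08) and from -2.97 for C1ql4 to 2.14 for Cbln3 in posterior ones (SE 2.15 and 2.14). DESeq2 called 0 members, beside 0.0417% of all genes in anterior and 0.133% in posterior libraries. Without B6D2F1N standard mouse 1, the interaction of C1ql3 in posterior libraries was 3.36 (adjusted p = 0.0398, beside 0.0504% of all genes called), with the B6D2F1N standard group reduced to mice 2 to 5, which stand apart as described. Without mice 4 and 5 in place of mouse 1 it was 1.78 (adjusted p = 0.502).

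Optimists and pessimists were compared separately in both portions, in fits that also held strain and housing. There were 4 anterior libraries of each class, and 4 posterior libraries of optimists and 5 of pessimists. All 4 optimists lived in standard housing, whereas 4 of the 5 pessimists lived in enriched housing, so that the class and the housing are largely confounded. No member passed the threshold in either portion, beside 0.00414% of all genes for the anterior portion and 0.00396% for the posterior one. At an unadjusted p under 0.05 there were 0 members in the anterior portion (4.13% of all genes) and 1 in the posterior one (3.5%). In the posterior portion DESeq2 called 1 member (0.0752% of all genes), and edgeR without a minimum count called 2 (0.251%). In the anterior portion DESeq2 called 0 members (0.087%).

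C1ql2 was the member with the unadjusted p under 0.05 and the one that DESeq2 called. Its posterior levels in optimists were 10.5 CPM in C57BL/6J and 4.75, 1.59 and 1.68 CPM in B6D2F1N. In pessimists they were 18.6 and 31.3 CPM in C57BL/6J and 16.5, 8.34 and 9.9 CPM in B6D2F1N. Within each strain the pessimists lay above the optimists, while over both strains the classes overlapped. The log2 fold change, optimist over pessimist, was -2.52 (SE 0.589, adjusted p = 1), DESeq2 gave -2.54 (adjusted p = 0.0489), and edgeR without a minimum count gave an adjusted p of 0.01. The B6D2F1N optimists are standard mice 3, 4 and 5, of which mouse 3 had 246 CPM of Tcf7l2 and mice 4 and 5 had striatal sums of 634 and 343 CPM, against 22.9 to 119 CPM in the pessimists. Without mice 4 and 5 the log2 fold change was -1.88 (adjusted p = 1) and without mouse 3 it was -3.03 (adjusted p = 0.395), and the part of these markers was not tested. The only pessimist in standard housing was B6D2F1N mouse 1, the mouse without Xist, and the fit could not be made without it.

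C1ql3 was the other member called without a minimum count, with a log2 fold change of -1.98 (adjusted p = 0.00935 in that setting and 1 with the minimum count). Its posterior levels in optimists were 118 CPM in C57BL/6J and 11.8, 14.9 and 28.8 CPM in B6D2F1N, and in pessimists 44.9 and 27.1 CPM in C57BL/6J and 129, 68.7 and 146 CPM in B6D2F1N. The optimist of C57BL/6J lay above the pessimists of its strain and the optimists of B6D2F1N below those of theirs. Without B6D2F1N standard mice 4 and 5 the log2 fold change was -0.75 (adjusted p = 1), and without mouse 3 it was -1.42 (adjusted p = 0.978). With housing in the fit, all of these values rest on B6D2F1N standard mouse 1, the only pessimist in standard housing. Its library had the 129 CPM, and the fit could not be made without it.

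In the other members, the log2 fold changes for bias in posterior libraries ran from -1.15 for Cbln3 (SE 2.66) to 1.89 for C1ql4 (SE 3.46), with -0.89 for C1ql1, 1.72 for Cbln1 (SE 1.85), -0.13 for Cbln2, -0.17 for Cbln4 and -0.22 for Adgrb3. In anterior libraries C1ql2 and Cbln3 gave 6.76 and 7.4 at low counts, with SEs of 3.63 and 4.72. The other members tested there ran from -0.52 for Cbln2 to 1.23 for C1ql1.

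The genes of the binding partners and related synaptic proteins were examined as a list of 21, which holds neurexins, the receptors BAI1 and BAI2 (Adgrb1 and Adgrb2), delta and kainate receptors, netrin receptors, neuroligins, LRRTM proteins and neuronal pentraxins. All 21 were tested in each comparison. Between the portions, 3 passed the threshold in C57BL/6J, 2 with higher and 1 with lower posterior levels, and 2 passed in B6D2F1N, both with lower levels, beside the 3.64% and 4% of all genes given above. Their median log2 fold changes were -0.12 and -0.30, and those of all genes 0.01 and 0.15. No partner gene passed with edgeR in the other comparisons, in which 0 to 5 of the 21 had an unadjusted p under 0.05, beside 2.96 to 10.3% of all genes. The lowest of these p-values was that of Adgrb2 for housing in posterior libraries of C57BL/6J, named after its value was seen, with a log2 fold change of 2.1 (SE 0.476, adjusted p = 0.182). Between the portions, 8 of the 21 in C57BL/6J and 12 in B6D2F1N had one, beside 13.5% and 15.5% of all genes.

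Nptx2, a secreted pentraxin that clusters AMPA receptors, was the partner with the largest difference in both strains. It had 16 to 136 CPM (median 66.1) in the anterior and 1.83 to 14.4 CPM (median 6.2) in the posterior libraries, without overlap. Its log2 fold change was -3.82 in C57BL/6J (SE 0.343, adjusted p = 2.22e-06) and -3.31 in B6D2F1N (SE 0.37, adjusted p = 4.65e-05). Nptx1 was lower in the posterior portion of B6D2F1N (-0.73, SE 0.2, adjusted p = 0.0457), a call that was lost when any of 8 of the 10 mice was left out.

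Lrrtm1 and Lrrtm4, postsynaptic ligands of neurexins, were higher in the posterior portion of C57BL/6J. Lrrtm1 had a log2 fold change of 0.69 (SE 0.189, adjusted p = 0.0497) and Lrrtm4 of 0.66 (SE 0.161, adjusted p = 0.0251). These calls were lost in 5 and 4, respectively, of the 6 fits that left out a mouse, and without the mouse block (adjusted p = 0.0562 and 0.0954). Nrxn2, Nrxn3, Grid1 and the netrin receptors Dcc and Neo1 did not pass the threshold in any comparison.

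Across libraries, the genes fell into different patterns. The following Pearson's r values are for log2 CPM over the 35 libraries, which include both portions of 16 mice, and are descriptions. Cbln4 and Adgrb3 had an r of 0.66, with 0.72 in the anterior and 0.86 in the posterior libraries. Cbln1 and Cbln2 had an r of 0.65, with 0.68 in the posterior libraries and -0.02 in the anterior ones. Cbln1 and Cbln4 went in opposite directions, with an r of -0.67. C1ql3 and Cbln4 had an r of 0.08 over all libraries but 0.39 in the anterior and 0.73 in the posterior ones.

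Of 13708 genes searched, those with the pattern most like C1ql3 were Pter (0.99), Glipr1 (0.96) and Man1a (0.92), and the r values of Glipr1 were 0.98 and 0.94 within the anterior and posterior portions. Cbln4 was closest to Kctd4 (0.90), Flrt3 (0.90) and Plppr1 (0.87), of which Flrt3, a synaptic adhesion protein, had an r of 0.90 in the anterior and 0.94 in the posterior libraries. C1ql2 was closest to St8sia2 (0.85), Zbbx (0.83) and Cd24a (0.82), and the r of St8sia2, a sialyltransferase of polysialic acid, was 0.69 in the anterior and 0.37 in the posterior portion. The pattern of Adgrb3 was most like those of Rpn2 (0.90), Gria2 (0.89) and Tmem185a (0.88).

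Cbln1 was closest to Abca7 (0.83), Tmem189 (0.80) and Scd1 (0.80), and Cbln2 to Tmeff1 (0.81), Slc27a4 (0.78) and Ache (0.77). The level of Cbln1 also followed the summed oligodendrocyte markers, with an r of 0.59 in the anterior and 0.78 in the posterior libraries. This was not its only relation to a marker sum: r was 0.45 and 0.58 with the thalamic sum and -0.26 and -0.65 with the dentate granule sum. For Cbln2, r was 0.02 and 0.67 with the oligodendrocyte sum and -0.11 and 0.6 with the thalamic sum. The posterior libraries of B6D2F1N standard mice 4 and 5 had the lowest Cbln1 values of all, 0.334 and 0.133 CPM, the lowest Cbln2 values, 1.34 and 1.64 CPM, and oligodendrocyte sums of 2270 and 2540 CPM. C1ql1 had no close match, with Hspb8 (0.65), Zfp516 (0.64) and Mboat1 (0.64) at the top, and for Zfp516 the r was 0.84 in the anterior and -0.47 in the posterior libraries.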

How the data were processed

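The authors sequenced RNA of laser-captured amygdala tissue (single reads, 72 bases) with a low-input kit that does not mark strand. The authors demultiplexed with bcl2fastq, checked reads with FastQC 0.11.7, trimmed with Trimmomatic 0.38, aligned to GRCm38 (mm10) with HISAT2 2.1.0, sorted with SAMtools 1.8 and counted per gene with HTSeq 0.11.2, as the submitters' processing notes name them. The deposited values are raw read counts per Ensembl gene. The counting's annotation release and strand setting are not given in the sources used here. HTSeq's own tallies were left out of the gene counts (no feature 13.7 to 26.4%, ambiguous 3.06 to 3.74%, not unique 6.23 to 10.9% of reads).

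Symbols, positions and exon lengths came from GENCODE M21, which lists 52403 of the identifiers. Genes whose counts in a comparison summed to at least 10 were tested with edgeR 4.0.16 in R 4.3.3 (TMM, quasi-likelihood F test, Benjamini-Hochberg adjustment over all genes tested). The threshold was an adjusted p of 0.05, and the SE is the log2 fold change over the square root of F. CPM values were scaled by TMM, and log2 CPM for correlations carry a prior count of 2. Following the study's methods, the portion fits had the mouse as a block. Across 16023 genes, deviations from the group means, paired by mouse, had a median r of 0.05 over 16 mice (-0.10 to 0.22). Nothing beyond the labels says how mice were allotted to batches. In fits with the mouse as a block, p-values measure the spread of the differences within mice, and in the other fits the spread between mice. The paper states that mice shared cages with others of their strain and that playgrounds were connected to cages. Cages were not entered in the fits, which treat cage mates as independent.

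The genes named are all 9 members in every comparison, by value or by range, the genes of the 21-gene partner list past the threshold, neurexins and delta receptors in the levels (some genes of this list are not reported here), and per member with a mean of at least 1 CPM the 3 genes most like it. The members and lists were chosen with earlier results of these data known. Near-copies were searched with 72-base windows every 36 bases and at most 2 mismatches: matches took 62.3% of windows in C1ql3, 1.16% in Cbln3, 0.255% in Adgrb3 and 0% in the others.

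The alternatives were DESeq2 1.42.0 (likelihood ratio test for portion and bias, Wald test otherwise; genes without an adjusted p count as not called in its shares of all genes), its size factors in edgeR, edgeR's filterByExpr, no minimum count, no replicate block, 1 fit for the 4 groups of a portion, no strain and housing terms or all 3 bias classes, each mouse left out in turn and, added after the data were seen, leaving out the mice with over 200 CPM of Tcf7l2, under 50 CPM of Rspo2 or under 3000 CPM of oligodendrocyte markers. On simulated counts, unchanged genes made up more of the calls than the threshold allows in most designs, and above all for bias in posterior libraries, where few changed genes were recovered. Such genes made up 10.3% of calls between the portions of C57BL/6J, 17.9% in B6D2F1N and 36.4% for bias in posterior libraries. Genes changed by 1 on the log2 scale were recovered at 11.1 to 15.5% in the strain and housing designs simulated. For a change of 2 the share was 56.6 to 66.4%.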

Additional observations from a re-analysis of the deposited data

Results flagged for a closer look

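Of 55 pairs of a member and a group of 4 to 6 libraries, 7 held a library that stood far from the others of its group by Dixon's test at the 95% level. Chance alone flags about 1 in 20 such groups, and the cause of each was not tested. In the anterior libraries of B6D2F1N in enriched housing, mouse 2 had 168 CPM of Cbln4 against 9 to 34 CPM in the others. In the anterior libraries of B6D2F1N in standard housing, mouse 3 had 53.2 CPM of C1ql3 against 168 to 192 CPM, and mouse 5 had 3.31 CPM of Cbln3 against 0 to 0.534 CPM. In the posterior libraries of the same group, mouse 1, the mouse without Xist reads, had 16.5 CPM of C1ql2 against 1.59 to 4.75 CPM and 129 CPM of C1ql3 against 11.8 to 28.8 CPM. In posterior libraries of C57BL/6J, mouse 2 in enriched housing had 0.483 CPM of C1ql4 against 0 in the other 3, and mouse 4 in standard housing had 385 CPM of Adgrb3 against 279 to 292 CPM.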

How the results depend on the processing

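In the 16 comparisons, the number of members past the threshold was computed in 259 refits and moved by over 1.5 times in 15 of them. Between the portions of B6D2F1N (1 member), DESeq2 called 3 (7.18% of all genes) and no minimum count 4 (3.99%). Leaving out all 4 mice with high Tcf7l2 or low Rspo2 gave 2 (2.36%). Leaving out the 2 mice with low oligodendrocyte markers gave 0 (3.19%). Each mouse left out in turn gave 1 to 3 (2.81 to 4.46%), with 3 without standard mouse 2 (3.33%) and 2 without enriched mouse 2 (3.6%) or 3 (2.92%). Against 0 members, DESeq2 called 1 for strain in enriched anterior, 2 for housing in C57BL/6J posterior and 1 for bias in posterior libraries, and no minimum count gave 1 for that housing comparison (Cbln4) and 2 for that bias comparison (C1ql2 and C1ql3). With single mice left out, there were 0 to 2 for strain in standard posterior (2 without B6D2F1N mouse 1), 0 to 2 for housing in C57BL/6J posterior (2 without enriched mouse 3) and 0 to 1 for strain by housing in posterior libraries (1 without B6D2F1N standard mouse 1). The cause was not tested, except that the last settings have fewer samples.

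Without the replicate block, 4 members passed in C57BL/6J, where C1ql3 was lost, beside 2.74% of all genes. In B6D2F1N 1 member passed, C1ql2 in place of C1ql3, beside 4.22% of all genes. Of 543 refits of single genes, 481 kept their direction and side of the threshold, 28 lost it, 24 gained it and 10 turned in sign. Those that turned were Cbln3 between the portions of C57BL/6J (1.52 without the replicate block, 1.33 without standard mouse 1, 1.04 and 0.74 without enriched mouse 1 or 3, and -1.95 to 1.33 over all mice left out in turn), Adgrb3 between the portions of B6D2F1N (0.15 without the Tcf7l2 mice, 0.13 without all 4 mice, 0.04, 0.03 and 0.01 without standard mouse 2 or 3 or enriched mouse 3, and -0.12 to 0.04 in turn) and Cbln1 in strain by housing in anterior libraries (0.01 without C57BL/6J enriched mouse 1, and -2.25 to 0.01 in turn), none of which passed the threshold. Bias could not be fitted without B6D2F1N standard mouse 1. Counts limit Cbln3 and C1ql4, whose levels mostly lie near the 0.109 to 0.172 CPM that 3 counts make.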
